A study of Mus musculus with 6 samples.

Results

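Expression of 8 genes of cholesterol synthesis was examined in inguinal white adipose tissue (iWAT) of mice that lack *Cebpa* in adipocytes. The 8 genes were given as a list of symbols, namely the sterol synthesis enzymes *Hmgcs1*, *Idi1*, *Fdps*, *Fdft1*, *Sqle*, *Lss* and *Cyp51* and the transcription factor gene *Srebf2*, out of 35999 gene symbols with summed counts. All 8 passed the filter on low counts and were among the 16069 genes tested. Bulk RNA-seq was performed on whole iWAT, with lymph nodes removed, from 10-week-old, randomly fed female mice on a C57BL6/J background. Both groups were homozygous for floxed *Cebpa*. The 3 Cebpa_fl/fl mice carried no Cre and the 3 Cebpa_ASKO mice carried AdipoQ-Cre, which deletes it where adiponectin is made, that is in fat cells, and leaves it in other cell types of the tissue. Each mouse gave 1 library from both of its inguinal depots, and every library carried the same batch label.

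Cholesterol is built from acetyl-CoA by way of mevalonate, isoprenoid diphosphates, squalene and lanosterol. The enzymes of this route are classic targets of SREBP2, the protein encoded by *Srebf2*, which is held in the endoplasmic reticulum by SCAP and INSIG proteins when sterols are plentiful. When sterols are scarce it is cut by proteases in the Golgi, and the released part enters the nucleus and binds sterol regulatory elements. White adipocytes store much of their cholesterol at the lipid droplet, take up lipoprotein cholesterol, and also make fatty acids under the related factor SREBP1c, a product of *Srebf1*.

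The estimated counts totalled 46237121 to 49477671 in the Cebpa_fl/fl libraries and 33141769 to 42243013 in the Cebpa_ASKO libraries, and the 8 genes took between 0.0392% and 0.0614% of the counts of a library. Values per library are CPM, counts relative to the library total after TMM scaling, and fold changes are Cebpa_ASKO over Cebpa_fl/fl. The quasi-likelihood test of edgeR was used, and genes count as called where the Benjamini-Hochberg adjusted p, taken over all genes tested, was below 0.05. *Cebpa* itself was expressed at 448, 465 and 498 CPM in Cebpa_fl/fl and at 37.7, 45.8 and 37.2 CPM in Cebpa_ASKO, a log2 fold change of -3.55 (SE 0.131, edgeR adjusted p = 0.000163). Fat cell markers were present in every library. Their sum over 12 genes, with *Cebpa* among them, was lower in Cebpa_ASKO (9230 to 11326 CPM) than in Cebpa_fl/fl (31779 to 39204 CPM). The resistin gene *Retn* was near absent in Cebpa_ASKO, at 0.664 to 2.13 CPM against 968 to 1285 CPM. Fewer cells of a type and less RNA per cell cannot be told apart in whole tissue.

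Where each promoter could be read, the stretch from 250 bases before to 50 bases after the RefSeq start site (GRCm38.p6) is given for 3 of the genes, because these windows show what sterol genes share and where they differ. RefSeq promoters were matched for 5 of the 8 genes, *Hmgcs1*, *Idi1*, *Lss*, *Cyp51* and *Srebf2*. Capitals mark matches on either strand to the letters TCACNCCAC, a form of the sterol regulatory element, and to CCAAT, the letters bound by NF-Y, which reads ATTGG on the other strand. *Hmgcs1* is shown as the gene with both motifs and *Srebf2* as the regulator. *Idi1* is shown as the gene whose levels over the libraries followed the mean of the 8 genes most closely. The windows lie at chr13:119690101-119690400 (plus strand), chr13:8885356-8885655 (plus strand) and chr15:82147019-82147318 (plus strand).
Hmgcs1: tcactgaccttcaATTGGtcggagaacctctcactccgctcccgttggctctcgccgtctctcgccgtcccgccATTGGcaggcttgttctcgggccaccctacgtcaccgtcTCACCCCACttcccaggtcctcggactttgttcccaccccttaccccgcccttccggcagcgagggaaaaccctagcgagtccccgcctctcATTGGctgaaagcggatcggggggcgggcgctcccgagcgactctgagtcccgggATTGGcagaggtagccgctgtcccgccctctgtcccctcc
Idi1: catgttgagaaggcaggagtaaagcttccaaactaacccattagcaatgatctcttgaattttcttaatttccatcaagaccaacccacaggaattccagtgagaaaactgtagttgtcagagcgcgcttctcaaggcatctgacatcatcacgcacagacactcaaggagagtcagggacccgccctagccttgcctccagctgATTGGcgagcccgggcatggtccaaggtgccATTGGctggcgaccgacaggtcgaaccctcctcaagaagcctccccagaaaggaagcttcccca
Srebf2: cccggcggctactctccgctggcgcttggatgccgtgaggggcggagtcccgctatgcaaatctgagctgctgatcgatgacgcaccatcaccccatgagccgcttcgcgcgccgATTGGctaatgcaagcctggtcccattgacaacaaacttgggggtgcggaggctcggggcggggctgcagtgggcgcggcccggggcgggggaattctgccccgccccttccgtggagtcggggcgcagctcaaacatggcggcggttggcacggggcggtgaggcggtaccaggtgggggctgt

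TCACNCCAC was found in the window of *Hmgcs1* alone of the 5, at position -137 from the start site, and in 1.24% of all 32851 promoters of this length. Its inner letters CACNCCAC, which overlap it, were again found only in *Hmgcs1* and in 6.24% of all promoters. CCAAT was found in all 5 windows, 4 times in that of *Hmgcs1*, against 37.4% of all promoters. TTGCNNAA, a core of the C/EBP motif, was in none of the 5 windows and in 10.8% of all promoters. These are matches of letters, and a window without a match says only that the letters are not in it.

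None of the 8 genes was called, against 840 of the 16069 genes tested (5.23%). *Hmgcs1* and *Fdft1* were the genes with the lowest Cebpa_ASKO values relative to control, and in these 2 of the 8 the genotypes did not overlap. Groups that did not overlap were found in 26.1% of all genes tested, about the same share. The same 2 genes had an unadjusted edgeR p below 0.05, against 19.8% of all genes. DESeq2, run as an alternative, called these 2 lower (10.7% of the genes with an adjusted p were called by it), and limma on log2(TPM + 1) called none. The log2 fold changes of the 8 genes ranged from -0.66 to 0.13 with a median of -0.30, where the median of all genes tested was 0.02. The plot of each gene by library shows control mice that differed more widely than Cebpa_ASKO mice. For *Srebf2* the spreads were close, at 1.26-fold in Cebpa_fl/fl and 1.16-fold in Cebpa_ASKO.

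**Figure D1:**
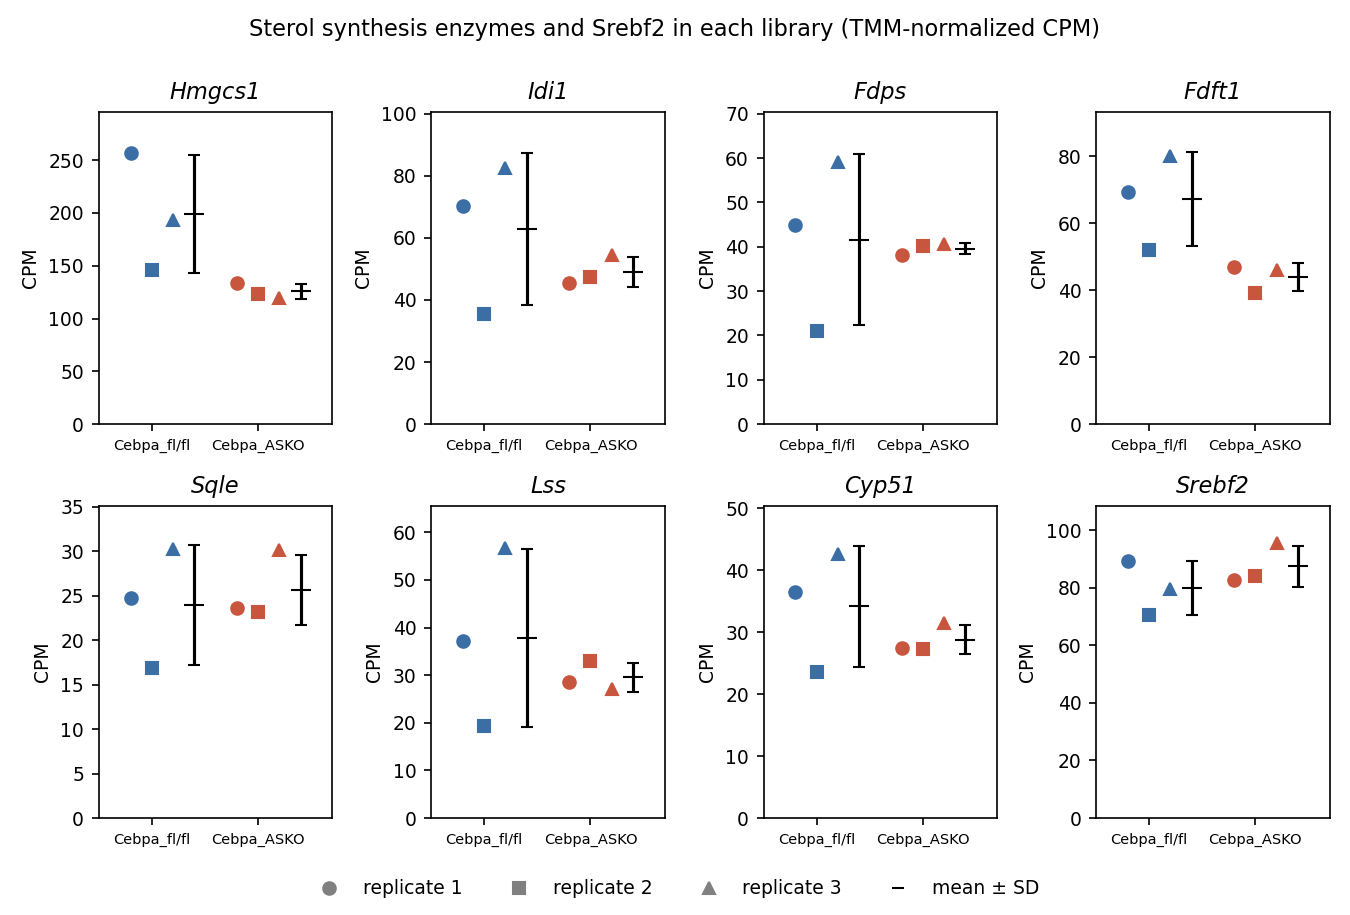
TMM-normalized CPM (linear axes from 0) of the 8 genes in the 3 Cebpa_fl/fl libraries (blue) and the 3 Cebpa_ASKO libraries (red), 1 symbol per library, with the mean ± SD in black. Cebpa_fl/fl 2 is the lowest control library in all 8 panels, and Cebpa_ASKO lies wholly below control only for Hmgcs1 and Fdft1.

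*Hmgcs1* (chr13:119690379-119708260, plus strand, GRCm38) encodes the cytosolic synthase that makes HMG-CoA, a precursor of mevalonate. It was expressed at 257, 146 and 194 CPM in Cebpa_fl/fl and at 134, 124 and 120 CPM in Cebpa_ASKO. Every Cebpa_ASKO library was below every control library, and the means were 199 ± 55.6 and 126 ± 7.29 CPM (SD, n = 3 each). The log2 fold change was -0.66 (SE 0.201, 95% interval -1.14 to -0.18, edgeR adjusted p = 0.129). The change was -0.44 without Cebpa_fl/fl 1, the highest library, and -0.86 without Cebpa_fl/fl 2, the lowest control library, where the gene was called (edgeR adjusted p = 0.0265). DESeq2 gave an adjusted p of 0.0252, and over all 19 settings the adjusted p ran from 0.0252 to 0.826.

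The genotypes overlapped for both enzymes of the isoprenoid stage. *Idi1* (chr13:8885501-8892451, plus strand), the isomerase of isopentenyl diphosphate, was at 70.4, 35.6 and 82.6 CPM in Cebpa_fl/fl and at 45.4, 47.4 and 54.5 CPM in Cebpa_ASKO. All 3 Cebpa_ASKO values fell between the control values, and the log2 fold change was -0.36 (SE 0.290, 95% interval -1.05 to 0.33, edgeR adjusted p = 0.577). Without Cebpa_fl/fl 2 it was -0.65 and was called (edgeR adjusted p = 0.0365, with a range of 0.0365 to 0.979 over all settings). Its neighbour in the genome, the paralog *Idi2*, was not detected beyond 1 count in any library.

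*Fdps* (chr3:89093588-89101959, minus strand) encodes farnesyl diphosphate synthase, which stands at the branch to sterols, dolichol, ubiquinone and prenylated proteins. Its values were 44.9, 20.9 and 59.1 CPM in Cebpa_fl/fl and 38.1, 40.1 and 40.5 CPM in Cebpa_ASKO. The control mice thus differed by 2.83-fold and the Cebpa_ASKO mice by 1.06-fold. The log2 fold change was -0.07, with an interval from -0.88 to 0.73 that leaves room for sizeable change in either direction (SE 0.337, edgeR adjusted p = 0.942), and it was -0.40 without Cebpa_fl/fl 2, 0.27 without Cebpa_fl/fl 3 and 0.11 by limma on log2(TPM + 1). Of its 31-base words, 27.9% also occur in other genes, mainly the pseudogene *Gm3571* and the overlapping model *Gm43738*. For *Idi1* this share was 18.8%, mainly with *Gm13502* and *Gm35570*. The 5 such predicted genes that share words with *Idi1*, *Fdps* and *Fdft1* held at most 0.0673 CPM in any library.

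*Fdft1* (chr14:63145150-63179578, minus strand) encodes squalene synthase, the first enzyme committed to sterols. Its values were 69.3, 52.1 and 79.9 CPM in Cebpa_fl/fl and 46.8, 39.2 and 45.9 CPM in Cebpa_ASKO. The genotypes did not overlap, with means of 67.1 ± 14.03 and 43.9 ± 4.16 CPM (SD, n = 3 each). The log2 fold change was -0.61 (SE 0.166, 95% interval -1.01 to -0.21, edgeR adjusted p = 0.0986). It was called without Cebpa_fl/fl 2, at -0.78 (edgeR adjusted p = 0.0172), and by DESeq2 (adjusted p = 0.0193), and over all settings the adjusted p ran from 0.0172 to 0.888.

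The 3' end of *Fdft1* overlaps that of *Ctsb*, the cathepsin B gene on the opposite strand, over 774 bases (chr14:63145150-63145923), and 26.2% of the 31-base words of the main *Fdft1* transcript also occur in *Ctsb*. *Ctsb* was far more abundant, at 1728, 2069 and 1812 CPM in Cebpa_fl/fl and 1349, 1299 and 1470 CPM in Cebpa_ASKO, with a log2 fold change of -0.45 (SE 0.151, edgeR adjusted p = 0.167). In both genes Cebpa_ASKO was wholly below control. In Cebpa_fl/fl 2 *Ctsb* was the highest of the 6 libraries and *Fdft1* the lowest of the controls. Whether strand was used in counting is not given in the sources used here, so reads of the overlap cannot be told apart, and their part in the *Fdft1* values was not tested.

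*Sqle* (chr15:59315077-59331192, plus strand) encodes squalene epoxidase, an oxygen-dependent and rate-limiting step. It was at 24.7, 16.9 and 30.2 CPM in Cebpa_fl/fl and at 23.6, 23.2 and 30.2 CPM in Cebpa_ASKO. The ranges lay over each other, and the log2 fold change was 0.10 (SE 0.221, 95% interval -0.43 to 0.63, edgeR adjusted p = 0.865). It turned to -0.11 without Cebpa_fl/fl 2 and to -0.05 without Cebpa_ASKO 3.

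*Lss* (chr10:76531588-76557138, plus strand), lanosterol synthase, closes the ring system. Its values were 37.2, 19.4 and 56.7 CPM in Cebpa_fl/fl and 28.6, 33.0 and 27.1 CPM in Cebpa_ASKO. The control range of 2.93-fold was the widest of the 8 genes and held all 3 Cebpa_ASKO values. The log2 fold change was -0.35 (SE 0.351, 95% interval -1.19 to 0.49, edgeR adjusted p = 0.662), and it was 0.06 without Cebpa_fl/fl 3. *Lss* also stood apart in its transcripts. Models annotated as retained introns took 45.9%, 63.7% and 37.4% of its counts in Cebpa_fl/fl and 59.3%, 61.3% and 42.4% in Cebpa_ASKO, so the protein-coding share overlapped between the genotypes. Counted over protein-coding transcripts only, the log2 fold change of *Lss* was -0.67 (edgeR adjusted p = 0.577). *Srebf2* had 11.4% to 15.5% of its counts in retained introns, and in the other 6 genes at least 90.6% of the counts were in protein-coding transcripts.

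*Cyp51* (chr5:4081145-4104746, minus strand), the lanosterol demethylase, was at 36.4, 23.5 and 42.6 CPM in Cebpa_fl/fl and at 27.5, 27.3 and 31.4 CPM in Cebpa_ASKO. The Cebpa_ASKO values again lay inside the control range. The log2 fold change was -0.25 (SE 0.212, 95% interval -0.75 to 0.26, edgeR adjusted p = 0.599). Its 3' end overlaps *Akap9* on the opposite strand over 166 bases, and 3.75% of its 31-base words occur in other genes.

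*Srebf2* (chr15:82147181-82205379, plus strand), the gene of the regulator, was the steadiest of the 8 in control mice. It was at 89.2, 70.6 and 79.7 CPM in Cebpa_fl/fl and at 82.5, 84.1 and 95.6 CPM in Cebpa_ASKO, a log2 fold change of 0.13 (SE 0.114, 95% interval -0.14 to 0.40, edgeR adjusted p = 0.607). The ranges overlapped, and the change stayed between 0.04 and 0.25 over all settings. The amount of its message says nothing of how much SREBP2 was cut and active, which RNA-seq does not measure. Log2 ratios to the *Srebf2* count of the same library need no scaling. By these, *Hmgcs1* was 0.76 lower (from 1.29 to 0.53) and *Fdft1* 0.73 lower (from -0.27 to -0.99) in Cebpa_ASKO without overlap. The ratios of the other 5 enzymes overlapped. The ratios reuse the same counts, and the *Srebf2* estimate of 0.13 adds to both differences. By CPM, 26.1% of all genes tested did not overlap, and the share for such ratios was not computed.

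Levels of different genes were compared per length, in the authors' TPM. In Cebpa_fl/fl the order was *Hmgcs1* (76.7 ± 16.1 TPM), *Fdps* (46.2 ± 21.0), *Fdft1* (36.1 ± 5.52), *Idi1* (26.2 ± 9.84), *Srebf2* (24.1 ± 1.94), *Lss* (11.1 ± 5.32), *Sqle* (10.8 ± 2.90) and *Cyp51* (10.8 ± 2.91; SD, n = 3 each). Each gene overlapped its neighbour in this order except for *Srebf2* (22.0 to 25.8 TPM) and *Lss* (7.02 to 17.1 TPM). In Cebpa_ASKO the order was *Hmgcs1* (51.8 ± 1.60 TPM), *Fdps* (46.6 ± 5.29), *Srebf2* (27.4 ± 4.46), *Fdft1* (25.2 ± 2.27), *Idi1* (21.8 ± 3.90), *Sqle* (12.2 ± 2.51), *Cyp51* (9.66 ± 1.33) and *Lss* (8.89 ± 0.455; SD, n = 3 each). Here the neighbours overlapped except for *Fdps* and *Srebf2* and for *Idi1* (17.9 to 25.7 TPM) and *Sqle* (10.2 to 15.0 TPM).

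These genes varied more among control mice than among Cebpa_ASKO mice. Among control libraries Cebpa_fl/fl 2 was the lowest in 8 of 8 genes, while it was the lowest in 37.2% of all genes tested, and Cebpa_fl/fl 3 was at the same time the highest in 6 of 8, against 22.0% of all genes. The median SD of the log2 values was 0.43 in Cebpa_fl/fl and 0.13 in Cebpa_ASKO, where over all genes tested it was 0.18 and 0.15. The SD was larger in Cebpa_fl/fl for 8 of 8 genes (59.8% of all genes), and all Cebpa_ASKO values lay inside the control range for 5 of 8 (19.2% of all genes). This was not particular to the 8. The SD was also larger in Cebpa_fl/fl for 13 of 15 other genes of the pathway and 12 of 13 of fatty acid synthesis. Cebpa_ASKO lay inside the control range for 8 of these 15 and 8 of these 13. For cholesterol uptake and isoprenoid branches the SD was larger in Cebpa_fl/fl for 6 of 16 and 5 of 14. The 8 genes move together, so these counts describe few independent patterns.

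Summed over the 8 genes, the levels were 629, 385 and 624 CPM in Cebpa_fl/fl and 426, 418 and 445 CPM in Cebpa_ASKO. The Cebpa_ASKO mean was 78.6% of the control mean (546 ± 140 and 430 ± 13.9 CPM, SD, n = 3 each), and the genotypes overlapped because of Cebpa_fl/fl 2 alone. Without that library the share was 68.5%. *Hmgcs1* and *Fdft1*, set apart after their values were seen, summed to 63.7% of control, and the other 6 genes to 92.8%.

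The other 15 genes of the pathway, enzymes and the scaffold *Erg28*, were not called either. None passed in edgeR with all 6 libraries, 2 of the 15 had an unadjusted edgeR p below 0.05 (*Mvk* and *Tm7sf2*, both lower), and DESeq2 also called none. The log2 fold change was below 0 for 12 of the 15, with a median of -0.36. *Mvk*, mevalonate kinase, was at 21.6, 19.2 and 25.6 CPM in Cebpa_fl/fl and 16.7, 15.7 and 17.2 CPM in Cebpa_ASKO, without overlap (log2 fold change -0.42, SE 0.124, edgeR adjusted p = 0.123). Of the 15, Cebpa_fl/fl 2 was the lowest and Cebpa_fl/fl 3 the highest control library in 13.

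Leaving out Cebpa_fl/fl 2 changed which genes were called. Without it, *Hmgcs1*, *Idi1* and *Fdft1* were called lower, 3 of the 8, against 922 of the 16312 genes then tested (5.65%). Cebpa_fl/fl 2 was the lowest control in all 8 genes and in 13 of the other 15, against 37.2% of all genes. Leaving it out thus raises the control mean of these genes by construction, and the 5.65% is not a like-for-like background. Of the other 15 genes, 5 were then called, all lower, namely the thiolase *Acat2* (-0.79), the kinase *Pmvk* (-1.04), the sterol reductase *Tm7sf2* (-1.05), the dehydrogenase *Nsdhl* (-1.05) and the final reductase *Dhcr7* (-0.75). Nothing in the labels sets this library apart from the other controls. Its gene counts differed more from those of Cebpa_fl/fl 1 and Cebpa_fl/fl 3 (chi-square over its degrees of freedom, 167 and 224). Between Cebpa_fl/fl 1 and Cebpa_fl/fl 3 this value was 62.8. Leaving out any other library gave no call among the 8 genes.

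The control libraries ranked in the same way for fatty acid synthesis. *Fasn*, fatty acid synthase, was at 9648, 2743 and 15806 CPM in Cebpa_fl/fl and at 10670.4, 10114 and 8671 CPM in Cebpa_ASKO. *Acly*, which supplies cytosolic acetyl-CoA to both routes, was at 1685, 208 and 3046 CPM in Cebpa_fl/fl and at 2492, 2288 and 2100.2 CPM in Cebpa_ASKO. Cebpa_fl/fl 2 was the lowest of the 6 libraries for both genes. *Acaca*, acetyl-CoA carboxylase, was at 1463, 515 and 2602 CPM against 1661, 1366 and 1359 CPM, and *Scd1*, the main desaturase, at 20219.5, 11002 and 28395 CPM against 44027, 34938 and 27661 CPM. In all 4 genes the genotypes overlapped.

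None of the 13 fatty acid synthesis genes was called by edgeR, 2 had an unadjusted edgeR p below 0.05 and DESeq2 called 1, *Me1*. Without Cebpa_fl/fl 2, edgeR called 3, all lower, namely *Me1* (-2.03), *Acss2* (-1.94) and *Slc25a1* (-1.15), which provide NADPH, acetyl-CoA and citrate. Cebpa_fl/fl 2 was the lowest and Cebpa_fl/fl 3 the highest control in 11 of the 13, as the map of deviations by library shows. The mice were randomly fed, and the time since the last meal is not given in the sources used here.

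**Figure D2:**
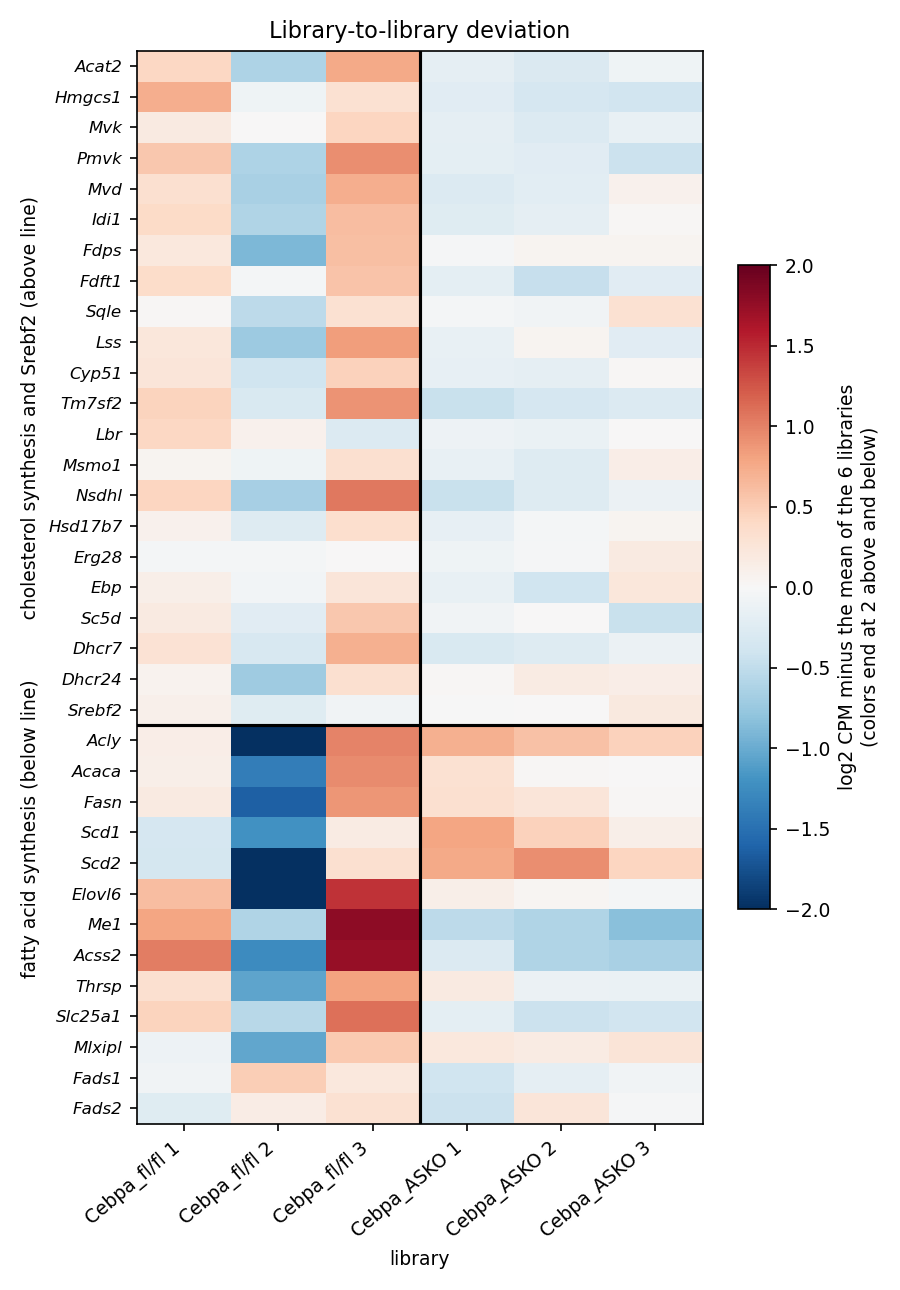
Log2 CPM of each gene minus its mean over the 6 libraries, for the cholesterol synthesis genes and Srebf2 (above the line) and the fatty acid synthesis genes (below it), 1 column per library; red is higher and blue lower, and colors end at 2. Cebpa_fl/fl 2 is blue and Cebpa_fl/fl 3 red for most rows of both blocks, and the Cebpa_ASKO columns are paler in the upper block.

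No gene of the machinery that holds and cuts SREBP2 passed the test. None of its 10 genes was called by edgeR or DESeq2, and *Insig1* alone had an unadjusted edgeR p below 0.05. *Insig1*, which retains SREBP in the endoplasmic reticulum and is itself a target of it, was at 167, 176 and 178 CPM in Cebpa_fl/fl and at 251, 289 and 181 CPM in Cebpa_ASKO. It was thus higher without overlap, though by little in Cebpa_ASKO 3 (log2 fold change 0.47, SE 0.173, edgeR adjusted p = 0.197), and it was called without that library, at 0.62 (edgeR adjusted p = 0.0461, with a range of 0.0461 to 0.996 over all settings). *Scap*, the escort protein, was at 50.8, 42.3 and 53.8 CPM against 54.6, 56.8 and 46.8 CPM (log2 fold change 0.11, SE 0.122, edgeR adjusted p = 0.714). *Srebf1* was at 286, 266 and 431 CPM in Cebpa_fl/fl and at 380, 417 and 304 CPM in Cebpa_ASKO, with overlapping groups (log2 fold change 0.16, SE 0.219, edgeR adjusted p = 0.763).

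In the lists of cholesterol uptake and of efflux, LXR and esterification, edgeR called 3 genes with all 6 libraries, *Scarb1*, *Nr1h3* and *Apoe*. Of 16 uptake and transport genes 1 was called, a share near the 5.23% of all genes tested. It was *Scarb1*, the HDL receptor. *Scarb1* was at 73.8, 83.0 and 96.4 CPM in Cebpa_fl/fl and at 25.5, 29.3 and 34.6 CPM in Cebpa_ASKO, a log2 fold change of -1.50 (SE 0.150, edgeR adjusted p = 0.00316), and 17 of the 19 settings called it.

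Of 14 genes of efflux, LXR and esterification, 2 were called, both lower, against the same 5.23% of all genes. *Nr1h3*, the gene of LXRα, was at 73.3, 79.7 and 79.8 CPM in Cebpa_fl/fl and at 32.2, 31.8 and 30.1 CPM in Cebpa_ASKO, a log2 fold change of -1.31 (SE 0.0782, edgeR adjusted p = 0.000724) that was called in 18 of the 19 settings. *Apoe*, an apolipoprotein that carries cholesterol out of cells, was at 2107, 2620.1 and 2045 CPM against 1281, 1364 and 1220 CPM (log2 fold change -0.81, SE 0.167, edgeR adjusted p = 0.0432). The *Apoe* call was held in 8 of the 19 settings and was lost on leaving out any library other than Cebpa_fl/fl 2, with adjusted p from 0.0680 to 0.173. None of 14 genes that lead isoprenoids elsewhere was called by edgeR or DESeq2, 2 had an unadjusted edgeR p below 0.05, and their log2 fold changes ranged from -0.22 to 0.32.

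**Figure D3:**
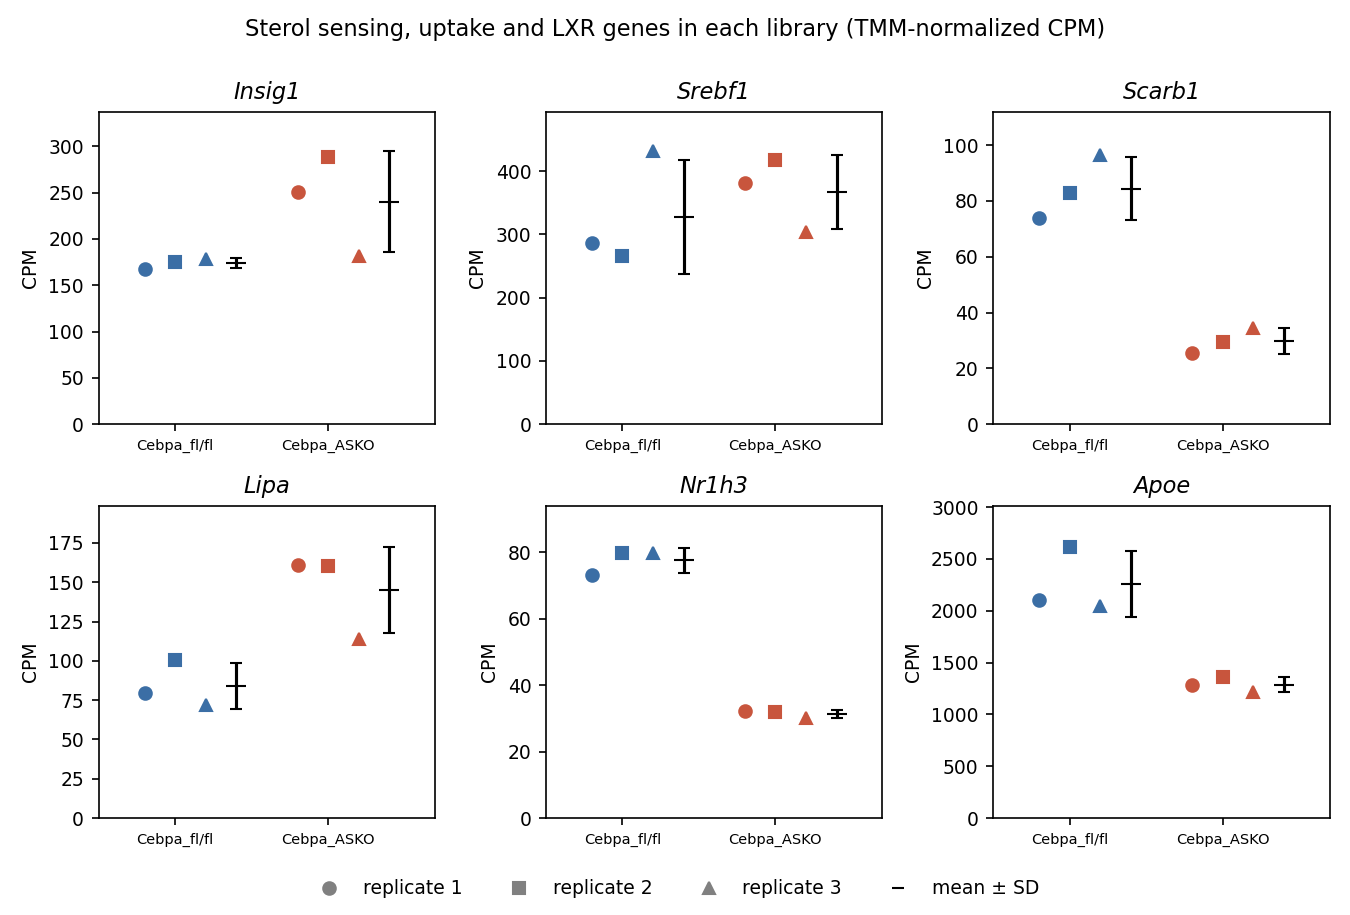
TMM-normalized CPM (linear axes from 0) of 6 genes of sterol sensing, uptake and LXR in the 3 Cebpa_fl/fl (blue) and 3 Cebpa_ASKO libraries (red), 1 symbol per library, with the mean ± SD in black. Scarb1, Nr1h3 and Apoe lie wholly lower and Insig1 and Lipa wholly higher in Cebpa_ASKO, while Srebf1 overlaps.

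Genes outside the lists were searched for the pattern most like the mean standardized log2 level of the 8 genes, over the 12693 genes whose mean log2 CPM was 1 or more. The nearest across the 6 libraries included *Recql4*, *Tmem69*, *Arfgap2* and *Slc25a35*, and the nearest 5 had Pearson coefficients between 0.98 and 1.00 (a description over 6 libraries of 2 genotypes). *Recql4*, a DNA helicase, was at 4.72, 1.40 and 6.21 CPM in Cebpa_fl/fl and at 2.38, 2.63 and 3.08 CPM in Cebpa_ASKO. *Slc25a35*, a mitochondrial carrier, was at 68.4, 38.1 and 82.0 CPM against 49.8, 50.3 and 51.1 CPM. None of these 5 was called. Of the 8 genes *Idi1* (1.00) and *Cyp51* (0.99) followed their own mean most closely and *Srebf2* least (0.50), while *Fasn* had 0.81. The mean includes each of the 8 genes but not *Fasn*, so these coefficients are not like for like.

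Markers of other cells also differed between these libraries. Skeletal muscle markers summed to 664 to 871 CPM in Cebpa_fl/fl and to 2110.2 to 5909 CPM in Cebpa_ASKO (10 of 12 called higher). Mammary epithelium markers summed to 1419, 965 and 2058 CPM in Cebpa_fl/fl and to 2647 to 2814 CPM in Cebpa_ASKO. Of these 12, edgeR called 0, and 8 had an unadjusted edgeR p below 0.05, all higher. Among controls, 7 of the 12 were lowest in Cebpa_fl/fl 2 and highest in Cebpa_fl/fl 3, against 22.0% of all genes tested. Of the adipocyte markers, with the deleted *Cebpa* among them, 8 of 12 were called lower. Of all genes tested, 5.23% were called in either direction. Endothelial markers summed to 484 to 584 and 350 to 468 CPM (2 of 12 called lower) and Schwann cell markers to 343 to 468 and 521 to 636 CPM (2 of 12 called higher). Macrophage markers (1236 to 3304 and 2012 to 2749 CPM) and fibroblast markers (7238 to 12764 and 8672 to 10799 CPM) overlapped. Both were highest in Cebpa_fl/fl 2, the library with the lowest sum of the 8 genes. Its *Hmgcs1* and *Fdft1* values were above those of every Cebpa_ASKO library. Lymphocyte markers stood at 367 CPM in Cebpa_fl/fl 1, in which *Hmgcs1* was highest, and at 11.5 to 26.8 CPM in the other 5 libraries. Keratinocyte and sebaceous markers, which mark skin with its active sterol synthesis, summed to 14.1 to 35.3 and 16.2 to 17.7 CPM, with *Awat1* at 0 in all. With the share of muscle markers as a covariate, the log2 fold changes were -0.62 for *Hmgcs1* and -0.38 for *Fdft1*. None of the 8 genes was then called by edgeR, and only 19 of all 16069 genes were. The share was 0.0636% to 0.0886% of counts in Cebpa_fl/fl and 0.224% to 0.612% in Cebpa_ASKO. It thus goes with genotype, and this fit cannot separate them. The part of the other cells in the values of the 8 genes was not tested.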

How the data were processed

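Total RNA from whole iWAT was enriched for poly-A RNA and sequenced in paired ends. Per the labels, TruSeq chemistry was used, and the submitters' processing notes name kallisto 0.44.0 and the builds GRCm38.p6 and GRCh38.p12. For each transcript the authors deposited an estimated count, which kallisto divides among similar transcripts, and left it unscaled. TPM, a share that accounts for transcript length, was deposited for transcripts and, by the authors' own summing, for gene symbols.

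Transcript identifiers, without their version, were looked up in GENCODE M21 (GRCm38), which matched 116816 of 118489 (98.6%) and 99.5% to 99.6% of the counts of each library. Estimated counts were summed per gene symbol and rounded. edgeR 4.0.16 (R 4.3.3) was used with TMM scaling (factors 0.956 to 1.06), its default filter on low counts and the quasi-likelihood test over 16069 genes. No covariate was used, and intervals are the fit's 95% intervals. Replicates were separate mice, and replicates of a genotype differed by more than sampling noise (chi-square over its degrees of freedom, 25.9 to 224). The procedure was tested on simulated counts.

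The genes, the lists and the tests were chosen with earlier results of these data known. Named genes are the 8 genes, *Cebpa*, every called gene of the cholesterol lists, *Insig1*, *Scap*, *Srebf1*, *Fasn*, *Acaca*, *Acly* and *Scd1*, and the 5 genes most like the mean of the 8, leaving out predicted genes. Some genes under this rule are not reported here. Other genes (*Retn*, *Idi2*, *Ctsb*, *Akap9*, *Mvk* and those called without a library, with a lower unadjusted p or by DESeq2) were named after their values were seen. *Mvk*, *Lipa* and others of the lists that were not called are given as values only. *Erg28* was listed under 2 symbols, and 1 was in the annotation.

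Alternatives were DESeq2 1.42.0, its size factors in edgeR, total counts, 2 other filters, limma 3.58.1 on log2(TPM + 1) and log2(TPM + 0.1) where 3 libraries reached a TPM of 1, and without that filter, a length offset, protein-coding transcripts only, a replicate block, the share of skeletal muscle markers as a covariate, and leaving out each library. The ratio to *Srebf2* and the sum of *Hmgcs1* and *Fdft1* were added after seeing the data. Promoters came from a RefSeq table (GRCm38.p6), searched with Python 3.11.15, where 31-base words were compared between transcripts.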

Additional observations from a re-analysis of the deposited data

How the results depend on the processing

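No log2 fold change turned from a called value to the opposite sign under any of the 18 alternatives. Calls among the 8 genes were 0 with all libraries, 2 with DESeq2 (*Hmgcs1* and *Fdft1*) and 0 to 3 on leaving out 1 library (3 without Cebpa_fl/fl 2), and 0 in every other setting. Calls among the other synthesis enzymes were 0, and 0 to 5 on leaving out 1 library. The summed level in Cebpa_ASKO was 76.9% to 84.1% of control over scalings and units and 68.5% to 85.1% on leaving out 1 library. The cause of these changes was not tested.

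Of all genes, 840 were called, 1813 with DESeq2, 512 with limma on log2(TPM + 0.1), 349 with limma without a filter, 370 with the replicate block, 19 with the muscle marker share as a covariate and 311 to 922 on leaving out 1 library. Sterol sensing genes gave 0 calls and 0 to 1 on leaving out 1 library (1 without Cebpa_ASKO 3). Uptake genes gave 1 call, 5 with DESeq2, 0 with limma without a filter, 2 with protein-coding transcripts, 0 with the muscle share and 1 to 3 on leaving out 1 library. Efflux and LXR genes gave 2 calls, 1 with total counts, 1 with each limma setting, 1 with the replicate block, 0 with the muscle share and 1 to 2 on leaving out 1 library. Fatty acid synthesis genes gave 0 calls, 1 with DESeq2 and 0 to 3 on leaving out 1 library.

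*Cebpa* was called in 19 of 19 settings (log2 fold change -3.80 to -3.43). Deviations of same-numbered mice from their group means had correlations of 0.066, 0.028 and -0.20 over 16069 genes. Those of differently numbered mice ran from -0.18 to 0.15. With 3 mice a genotype, this cannot decide whether the replicate numbers pair mice. With the block, 0 of the 8 genes were called, at -0.63 for *Hmgcs1* and -0.59 for *Fdft1*, and the change of *Fdps* was 0.05. With 3 mice a genotype and this spread, the intervals of *Idi1*, *Fdps*, *Lss*, *Sqle* and *Cyp51* include changes of 1.5-fold or more.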
